A study of Mus musculus with 6 samples.

Results

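The genes described here were 32 that carry out or control the synthesis of cholesterol and fatty acids in the mouse, and all 32 were found by symbol among the 40166 genes of the count table. The rule that picked them uses their function, though it was written with earlier results of these data known: 5 regulators, 7 enzymes from acetyl-CoA to farnesyl diphosphate, 11 enzymes from farnesyl diphosphate through squalene to cholesterol, 1 sterol carrier and 8 enzymes of fatty acid synthesis. All 32 passed the filter on low counts (a median of at least 5 counts in at least 1 group), which left 15355 genes for testing.

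The measurements were bulk RNA sequencing of 6 subcutaneous tumors of YUMM3.3, a mouse melanoma cell line with an activating Braf mutation and no Cdkn2a, grown in C57BL/6 mice. The 3 vehicle tumors (replicates 7, 8 and 9) came from mice given water, and the 3 RGS tumors (replicates 10, 11 and 12) from mice given Rigosertib (RGS), a small molecule described as a RAS mimetic, at 300 mg/kg. Both were given by oral gavage on 5 days of each week, and tumors were taken at day 17. All tumors derived from this 1 line, so both groups shared its mutations, and the labels do not say how many animals each library came from. The comparison asked which transcripts differed between treated and untreated tumors.

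Cells make cholesterol from acetyl-CoA through mevalonate, isoprenoid diphosphates, squalene and lanosterol, and make fatty acids from acetyl-CoA through malonyl-CoA. The transcription factors SREBP1 and SREBP2, encoded by Srebf1 and Srebf2, switch on most of these genes. When sterols are plentiful, Insig proteins hold Scap, which escorts SREBP out of the endoplasmic reticulum, in place, and the factors stay inactive. When sterols are scarce, Scap carries SREBP to the Golgi, where it is cut and released to the nucleus. Insig1 is itself an SREBP target.

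In the RGS tumors 12 of the 32 genes were lower and 2 were higher, and 18 did not pass the test. Idi1 and Insig1 fell most, to 0.165 and 0.231 of the vehicle mean, while Dhcr7, an enzyme at the end of the cholesterol pathway, rose 2.82-fold. Lss, Mvd, Fads2 and Scd1 fell to between 0.337 and 0.474 of the vehicle mean. The transcripts of Srebf1 and Srebf2 themselves did not pass the test. These calls came from a quasi-likelihood fit in edgeR over all 15355 genes, with a threshold of adjusted p = 0.05 (Benjamini-Hochberg).

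Over all genes tested, 16.5% were called lower and 16.3% higher (32.8% in either direction), so that 37.5% of these genes were called lower where the table as a whole gave 16.5%, and 6.25% were called higher where it gave 16.3%. The count of higher genes rested on single tumors: without vehicle replicate 7 it was 6 of the 32, beside 2698 of all genes, and without vehicle replicate 8 or 9 it was 1. Scaled by library size alone, without a factor for library composition, the counts were 17 lower and 1 higher of the 32, against 3152 lower and 1870 higher of all genes in place of 2533 and 2503. The median log2 fold change (RGS minus vehicle) was -0.44 over the 32 genes and -0.05 over all genes tested, and single genes ranged from -2.59 to 1.49. The sign was negative for 25 genes and positive for 7. The 3 RGS values and the 3 vehicle values did not overlap for 22 genes, 19 of them lower and 3 higher in RGS, beside 45.8% of all genes tested, 24.0% lower and 21.7% higher. A fall by at least 1 on the log2 scale was called for 6 of the 32 genes and for 9.44% of all genes.

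**Figure D1:**
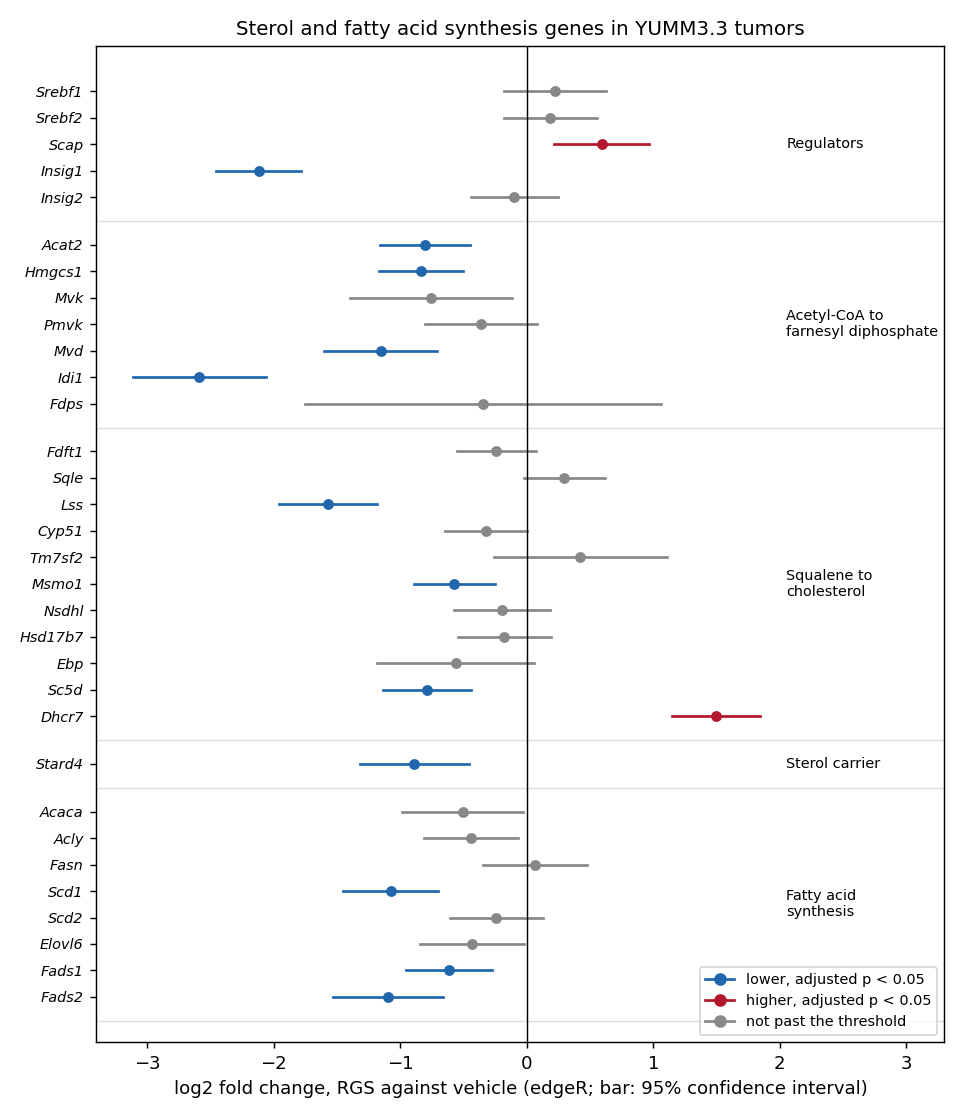
Log2 fold change of each gene, RGS against vehicle tumors (n = 3 each), in pathway order, with bars for the 95% confidence interval of the edgeR fit and colors for the call at adjusted p = 0.05. Idi1 at -2.59 and Insig1 at -2.12 lie farthest to the left, and Dhcr7 at 1.49 lies farthest to the right.

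The 6 libraries held 13837932 to 32555494 assigned counts, and the 3 RGS libraries were the 3 smallest. A count of 0 allows up to 3 counts, which is 0.0856 to 0.226 CPM (counts per 1000000 assigned counts). Mitochondrially encoded genes took 2.13 to 3.20% of the counts in vehicle tumors and 5.60 to 8.22% in RGS tumors, and cytosolic ribosomal protein genes took 5.12 to 9.38% and 2.81 to 3.31%. Of 9 tested cell division genes 8 were lower in RGS, with a summed level of 604 to 682 CPM in vehicle and 227 to 274 CPM in RGS tumors, while Kif11 had no count in any tumor. The 7 melanocyte markers summed to 4.94 to 7.68 CPM in vehicle and 4.53 to 10.5 CPM in RGS tumors, mostly Mitf (means of 5.46 and 7.43 CPM), while the defining markers Tyr, Dct and Mlana had no count in any tumor. No count was found in any tumor for the leukocyte markers Ptprc, Cd3e, Cd3d, Cd8a and Nkg7, and Cd4 had 14 counts in 1 tumor. The paper states that the sequenced tumors included stromal and immune cells, and it measured leukocytes in YUMM3.3 tumors by flow cytometry. The missing leukocyte counts differ from that description, and the reason was not tested. The 10 adipocyte markers, a cell type rich in fatty acid synthesis, summed to 23.1 to 25.8 CPM in vehicle and 67.8 to 85.3 CPM in RGS tumors, with Plin1, Lep and Retn at 0; the lipase gene Lipe gave 15.0 CPM of the vehicle mean of 24.6 CPM and 65.5 CPM of the RGS mean of 78.2 CPM. Sebaceous and keratinocyte markers summed to 1.08 to 2.19 and 1.47 to 4.10 CPM, and fibroblast markers to 393 to 582 and 290.4 to 318 CPM. Macrophage markers summed to 58.9 to 64.7 and 65.4 to 88.2 CPM, with Adgre1 and C1qc at 0, endothelial markers to 0.946 to 1.20 and 3.24 to 11.2 CPM, and skeletal muscle markers to 6.34 to 10.6 and 3.99 to 8.20 CPM. The part that these differences play in the results below was not tested, and depth, mitochondrial share and treatment cannot be told apart because they separate the same tumors. In bulk tumors, fewer cells of a type and less RNA per cell cannot be told apart either.

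Promoter sequence was available for 25 of the 32 genes in RefSeq (assembly GRCm38.p6, 250 bases before to 50 bases after each annotated start), and is shown for the genes whose windows hold a sterol element match and for the sterol pathway genes that moved most. SREBP binds sterol regulatory elements, which are usually accompanied by CCAAT boxes, bound by NF-Y, and by GC boxes, bound by Sp1. The 9-letter element core TCACNCCAC, searched on both strands, was in the window of 1 of the 25 genes, Hmgcs1, and in 1.44% of the 10708 tested genes with a window. The 8-letter form CACNCCAC, which is contained in the longer one and was added after the first search, was found in 3 of 25 genes, or 12%, and in 7.64% of tested genes. The 3 genes were Insig1, Acat2 and Hmgcs1, and all were lower in RGS. In the 4 windows below the 8 letters or their reverse complement are in capitals, each sequence reading 5′ to 3′ on the gene's own strand. They lie at chr13:119690205-119690234 (plus strand, Hmgcs1), chr17:12960887-12960916 and chr17:12960759-12960788 (minus strand, Acat2) and chr5:28071393-28071422 (plus strand, Insig1).
Hmgcs1: gtcaccgtctCACCCCACttcccaggtcct
Acat2, farther: ggatcctccaCACCCCACcctaacccgaca
Acat2, nearer: gtgaggaggcGTGGCGTGgaggccatagct
Insig1: gtgtagtgtcGTGGCGTGtaccttccatgc
The match began 136 bases before the RefSeq start of Hmgcs1 and 9 bases before that of Insig1. For Acat2 the matches began 181 and 53 bases before its RefSeq start. RefSeq starts can differ from the starts of the counted genes. The Insig1 match lies inside the counted gene, which begins at chr5:28071363. A match is a string of letters and not evidence of a bound site.

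CCAAT, on either strand, was in the window of 20 of the 25 genes, or 80%, and of 42.9% of the tested genes. The GC box GGGCGG was in 84% of these genes and 67.1% of tested genes, and the E-box CACGTG in 20% and 11.4%. Genes with several annotated starts have several windows, and a match in any of them was counted. By call, CCAAT was in 7 of 9 genes that were lower, 1 of 2 that were higher and 12 of 14 that did not pass the test. The windows below show it, in capitals as CCAAT or its reverse complement, in the 4 sterol pathway genes that fell by at least 1 on the log2 scale and in Dhcr7, which rose. They lie at chr13:8885576-8885605 (plus, Idi1), chr5:28071184-28071213 (plus, Insig1), chr10:76531531-76531560 (plus, Lss), chr8:122443432-122443461 (minus, Mvd) and chr7:143830153-143830182 (plus, Dhcr7).
Idi1: catggtccaaggtgccATTGGctggcgacc
Insig1: cgccctcctcccATTGGctccggcggcctc
Lss: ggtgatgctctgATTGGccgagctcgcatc
Mvd: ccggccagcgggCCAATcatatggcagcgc
Dhcr7: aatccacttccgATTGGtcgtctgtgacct
The Idi1 and Dhcr7 windows precede a RefSeq start but lie inside the counted genes, which begin at chr13:8885501 and chr7:143823145. The box was present both in genes that fell and in Dhcr7. It was absent from the windows of Scap, the other gene that rose, and of Acat2 and Fads2, which fell.

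Among the 5 regulators Insig1 fell, Scap rose, and Srebf1, Srebf2 and Insig2 did not pass the test. Insig1 (ENSMUSG00000045294.11, chr5:28071363-28078662 in mm10), the sterol-dependent anchor of Scap, was at 177, 196 and 188 CPM in the vehicle tumors and at 44.4, 46.3 and 38.8 CPM in the RGS tumors. The 2 groups were far apart, and the spread within each was small. The mean was 187 ± 9.39 CPM in vehicle and 43.1 ± 3.88 CPM in RGS tumors (SD, n = 3), a 4.34-fold lower level, with a log2 fold change of -2.12 (SE 0.16, adjusted p = 1.43e-08).

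Insig2, the related anchor, was at 70.0, 81.0 and 76.1 CPM in vehicle and at 78.4, 63.6 and 70.1 CPM in RGS tumors. These values overlapped, with a log2 fold change of -0.10 and a 95% confidence interval of -0.44 to 0.25 (adjusted p = 0.692). Per length, the Insig1 to Insig2 ratio was 2.78 ± 0.0641 in vehicle and 0.691 ± 0.109 in RGS tumors (SD, n = 3), so that Insig1 was the more abundant anchor transcript in every vehicle tumor and the less abundant in every RGS tumor. The exact two-sided permutation test gave p = 0.1, the smallest that 3 against 3 allows, and gave the same p for each of the 4 ratios compared. The ranges of Insig1 and Insig2 in each group already fixed the separation of this ratio, so its p adds nothing.

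Scap was at 37.3, 35.4 and 30.2 CPM in vehicle and at 52.9, 50.9 and 51.5 CPM in RGS tumors. Every RGS tumor was above every vehicle tumor. The log2 fold change was 0.59 (SE 0.18, adjusted p = 0.0159), but the call was lost without vehicle replicate 8 (adjusted p = 0.0505), without vehicle replicate 9 (adjusted p = 0.0811) and with library size as the only scaling (adjusted p = 0.0748).

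Srebf2, which encodes the SREBP that mainly drives sterol genes, was at 385, 299 and 235 CPM in vehicle and at 395, 332 and 320.5 CPM in RGS tumors, and Srebf1 was at 111, 70.6 and 68.3 CPM and at 82.9, 106 and 103 CPM. In both genes vehicle replicate 7 was above the other vehicle tumors and within or above the range of the RGS tumors. The log2 fold changes were 0.19 (95% interval -0.18 to 0.56) and 0.22 (-0.18 to 0.63). Without vehicle replicate 7 they were 0.39 (adjusted p = 0.0343) and 0.48 (adjusted p = 0.0224), past the threshold. In that fit 3 of the 5 regulators were called higher, beside 2698 of all genes. Without vehicle replicate 8 or 9 none of the 5 was called higher.

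**Figure D2:**
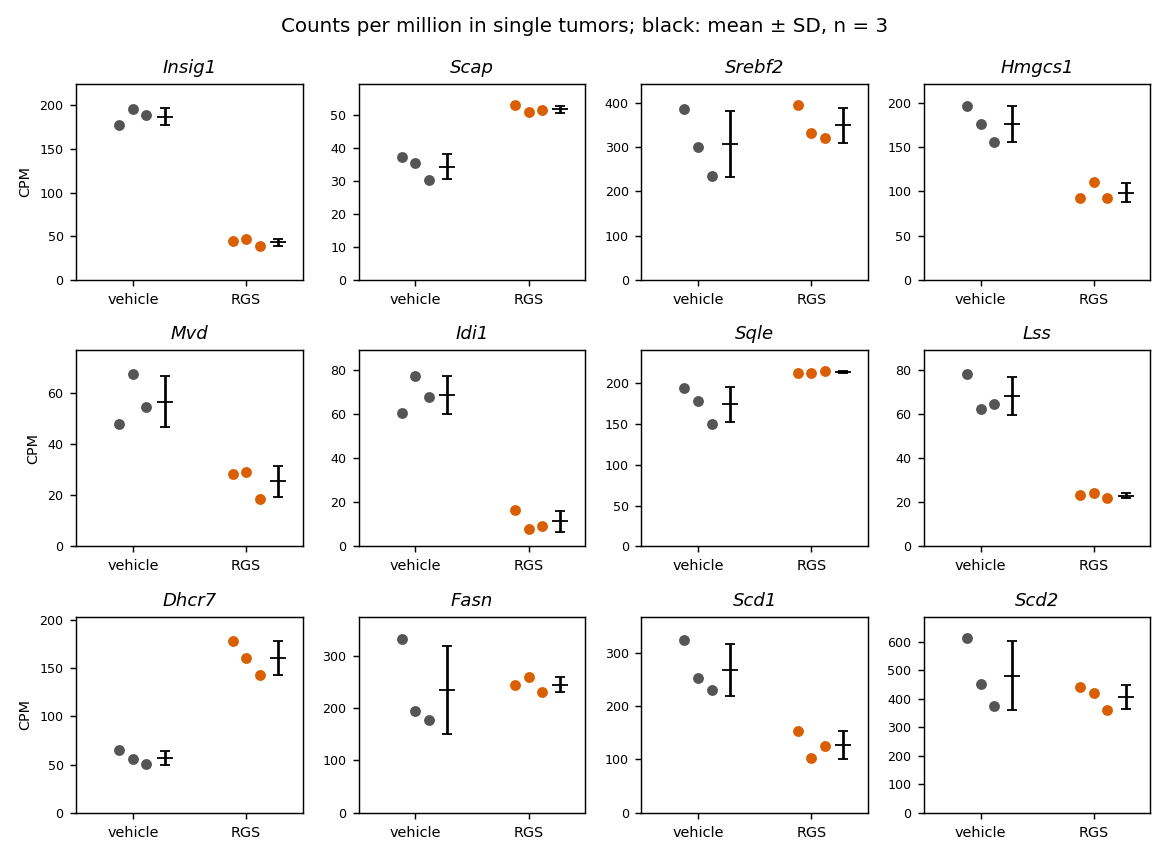
CPM of 12 of the genes in each tumor (gray, vehicle; orange, RGS), with the mean and SD (n = 3) in black and every axis starting at 0. Insig1, Hmgcs1, Mvd, Idi1, Lss and Scd1 show RGS tumors below all vehicle tumors, Dhcr7, Scap and Sqle show them above, and Srebf2, Fasn and Scd2 show groups that overlap.

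Of the 7 enzymes that lead from acetyl-CoA to farnesyl diphosphate, 4 (57.1%) were lower in RGS tumors and none was higher, beside 16.5% and 16.3% of all genes tested. All 7 had a negative log2 fold change (median -0.81). Their summed level was 450.6 ± 26.9 CPM in vehicle and 228 ± 16.5 CPM in RGS tumors (SD, n = 3), and the lowest vehicle tumor, at 434 CPM, was well above the highest RGS tumor, at 242 CPM. Idi1, which interconverts the 2 isoprenoid diphosphates, was at 60.5, 77.5 and 68.0 CPM in vehicle and at 16.7, 7.99 and 9.30 CPM in RGS tumors. The groups did not come near each other, and RGS replicate 10 was the highest of its group. The log2 fold change of -2.59 (SE 0.25, adjusted p = 3.25e-07) stood at 5.46% from the lowest among all tested genes. Near copies, the larger being Gm13502 with 0 to 26 counts a tumor, match 22.6% of its transcript.

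Mvd, the decarboxylase that yields isopentenyl diphosphate, was at 47.9, 67.5 and 54.5 CPM in vehicle and at 28.4, 29.3 and 18.6 CPM in RGS tumors (log2 fold change -1.15, SE 0.21, adjusted p = 0.000375). Hmgcs1, the HMG-CoA synthase, was at 196, 176 and 155 CPM and at 92.1, 111 and 92.4 CPM (-0.84, SE 0.16, adjusted p = 0.000498). For Mvd as for Hmgcs1, the highest RGS value was under the lowest vehicle value. Acat2, the thiolase that makes acetoacetyl-CoA, was at 80.3, 100.0 and 107 CPM and at 52.6, 59.7 and 52.3 CPM (-0.81, SE 0.17, adjusted p = 0.00125). In near-identical sequence (at least 95% over at least 150 bases) 65.6% of the Acat2 transcript was matched by Acat3 or Tcp1, so its counts are less certain than those of the others. Acat3 had 1 to 43 counts a tumor, but Tcp1, which matches 19.8% of the transcript, had 5412 to 16813, more than Acat2 itself at 792 to 2813, and Tcp1 was lower too (log2 fold change -0.51, adjusted p = 0.0190).

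Idi1 fell farther than Hmgcs1. Per length, the Idi1 to Hmgcs1 ratio was 0.519 ± 0.0982 in vehicle and 0.155 ± 0.0743 in RGS tumors (SD, n = 3), without overlap (exact two-sided permutation p = 0.1). Here too the ranges of the single genes already fixed the separation, and the p adds nothing.

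The other 3 enzymes of this stage did not pass the test. Mvk, mevalonate kinase, was at 18.2, 25.2 and 21.9 CPM in vehicle and at 14.6, 6.48 and 17.3 CPM in RGS tumors, with groups that did not overlap but with RGS replicate 11 far below the other RGS tumors. Its log2 fold change was -0.76 (95% interval -1.40 to -0.12, adjusted p = 0.0648), and it passed in 6 of 18 alternative settings. Pmvk, the next kinase, was at 24.1 to 29.5 CPM and at 19.6 to 22.7 CPM (-0.36, 95% interval -0.81 to 0.08). Fdps, which joins the isoprenoid units, was the least abundant of the 32 genes per length, at 4.94, 5.84 and 3.14 CPM and at 5.30, 5.35 and 0.306 CPM. RGS replicate 12, with 5 counts, was far below the rest, and the 95% interval ran from -1.76 to 1.06. Without that tumor the log2 fold change of Fdps turned from -0.35 to 0.18. Of its exon bases, 26.7% are shared with the same-strand gene Gm43738, which had no count in any tumor.

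**Figure D3:**
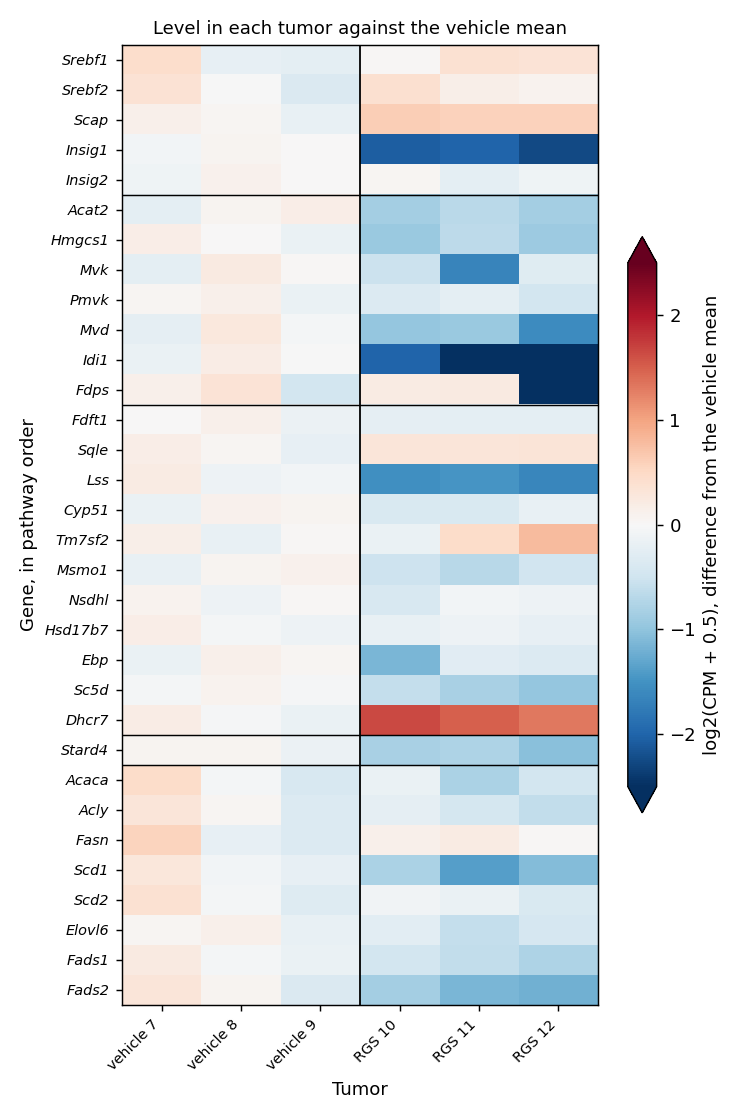
Level of each gene in each of the 6 tumors as the log2 difference from the vehicle mean (red above, blue below, white equal; the scale ends at ±2.5). Insig1, Idi1 and Lss are dark blue in all 3 RGS tumors and Dhcr7 is red in all 3, while Fdps is dark blue in RGS replicate 12 only.

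The 11 enzymes that lead from farnesyl diphosphate to cholesterol were less uniform. Lss, Msmo1 and Sc5d fell, Dhcr7 rose, and 7 did not pass the test (median log2 fold change -0.24). Their summed level was 1247 ± 37.0 CPM in vehicle and 1107 ± 19.7 CPM in RGS tumors (SD, n = 3), without overlap but with a smaller gap than in the earlier stage. Lss, which closes squalene epoxide into lanosterol, was at 77.9, 61.9 and 64.4 CPM in vehicle and at 23.1, 24.0 and 21.7 CPM in RGS tumors. The RGS values lay close together, and the log2 fold change was -1.57 (SE 0.18, adjusted p = 3.21e-06), a 2.97-fold lower level.

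Dhcr7 (ENSMUSG00000058454.15, chr7:143823145-143848410 in mm10), the reductase of the last step in one branch of the pathway, moved the other way. It was at 65.0, 55.9 and 50.4 CPM in vehicle and at 179, 161 and 143 CPM in RGS tumors, and the lowest RGS tumor was more than 2-fold above the highest vehicle tumor. The log2 fold change was 1.49 (SE 0.17, adjusted p = 1.78e-06), and it was 1.35 or more in each of the 18 alternative settings.

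Sc5d, the desaturase that makes the substrate of Dhcr7, was at 91.7, 101 and 93.9 CPM in vehicle and at 63.1, 54.5 and 48.3 CPM in RGS tumors (-0.79, SE 0.17, adjusted p = 0.00127). The consecutive enzymes thus changed in opposite directions. Per length, the Dhcr7 to Sc5d ratio was 0.502 ± 0.0797 in vehicle and 2.44 ± 0.0607 in RGS tumors (SD, n = 3). The ratio was below 1 in all 3 vehicle and above 1 in all 3 RGS tumors (exact two-sided permutation p = 0.1). Each gene alone already separated the groups, in opposite directions, so the ratio had to separate them and its p adds nothing. Msmo1, a sterol methyl oxidase, was at 324, 386 and 399 CPM in vehicle and at 257, 226 and 263 CPM in RGS tumors (-0.57, SE 0.15, adjusted p = 0.00701). Its call was lost without vehicle replicate 8 (adjusted p = 0.0538) or without RGS replicate 11 (adjusted p = 0.0532), though the groups did not overlap.

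Sqle, squalene epoxidase, a rate-limiting enzyme of the late pathway, was at 193, 178 and 150.1 CPM in vehicle and at 212, 213 and 215 CPM in RGS tumors. All 3 RGS tumors were above all vehicle tumors and differed by only 0.726% of their mean (coefficient of variation). The log2 fold change was 0.30 (95% interval -0.02 to 0.62, adjusted p = 0.144). It passed the threshold without vehicle replicate 7 (0.38, adjusted p = 0.0319) and with limma voom, an alternative fit (0.29, adjusted p = 0.0389). Lss, whose enzyme takes the product of Sqle, was called lower, so that neighbors in the pathway differed here too.

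Fdft1, squalene synthase, was at 194, 210.0 and 174 CPM in vehicle and at 165, 163 and 161 CPM in RGS tumors (-0.24, 95% interval -0.55 to 0.07). The exons of Ctsb on the other strand overlap 18.3% of its exon bases, and Ctsb rose (log2 fold change 0.86, adjusted p = 1.29e-04). With counting of unknown strandedness, reads of the 2 genes cannot be separated there, and the near copy Gm6781 matches 33.7% of the Fdft1 transcript. Cyp51, the lanosterol demethylase, was at 151, 182 and 177 CPM and at 130.1, 129.6 and 148 CPM (-0.32, SE 0.15, adjusted p = 0.116), again without overlap. Ebp was at 13.4 to 16.7 CPM and at 6.68 to 12.5 CPM (-0.56, 95% interval -1.18 to 0.06), and Hsd17b7 at 43.3 to 52.6 CPM and at 40.7 to 43.0 CPM (-0.18, 95% interval -0.55 to 0.19). Nsdhl (-0.20) and Tm7sf2 (0.42) had groups that overlapped. Of the 11 genes 9 had groups without overlap, 7 lower and 2 higher, where 24.0% and 21.7% of all genes tested did so, and 4 passed the test (27.3% lower and 9.09% higher, beside 16.5% and 16.3%).

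Stard4, a soluble carrier that moves cholesterol between membranes and is an SREBP target, was at 38.0, 38.0 and 32.3 CPM in vehicle and at 20.3, 21.0 and 17.3 CPM in RGS tumors. The level in RGS tumors was 0.540 of that in vehicle tumors (log2 fold change -0.89, SE 0.21, adjusted p = 0.00258), without overlap.

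Of the 8 fatty acid genes, 3 (37.5%) fell and none rose, beside 16.5% lower and 16.3% higher of all genes tested. The 3 that fell were desaturases. The steps that make the saturated chain, Acly, Acaca and Fasn, did not pass the test. Scd1, which puts the double bond into stearoyl-CoA, was at 323, 252 and 229.9 CPM in vehicle and at 154, 102 and 125 CPM in RGS tumors (log2 fold change -1.07, SE 0.18, adjusted p = 0.000149). Fads2, the first desaturase of polyunsaturated fatty acids, was at 68.0, 57.4 and 42.7 CPM and at 30.3, 24.7 and 23.6 CPM (-1.10, SE 0.21, adjusted p = 0.000453). Fads1, the desaturase that follows it, was at 179.9, 148 and 137 CPM and at 111, 101 and 90.5 CPM (-0.62, SE 0.16, adjusted p = 0.00653). In each of the 3 genes all RGS tumors were below all vehicle tumors.

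Scd2, a close relative of Scd1 with the same activity, was at 613, 452 and 376 CPM in vehicle and at 441, 419 and 359 CPM in RGS tumors. The groups overlapped (-0.24, 95% interval -0.61 to 0.13, adjusted p = 0.317). Per length, the Scd1 to Scd2 ratio was 0.637 ± 0.0484 in vehicle and 0.354 ± 0.0685 in RGS tumors (SD, n = 3), without overlap (exact two-sided permutation p = 0.1). Near-identical stretches with Scd1 cover 11.4% of the Scd2 transcript.

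Fasn, which builds palmitate, was at 331, 194 and 177 CPM in vehicle and at 244, 259 and 231 CPM in RGS tumors, with vehicle replicate 7 above all RGS tumors and the other vehicle tumors below them. The log2 fold change of 0.06 (95% interval -0.35 to 0.47) had no stable sign: it was 0.40 without vehicle replicate 7 (adjusted p = 0.0212), -0.031 without replicate 8, -0.099 without replicate 9 and -0.085 with library size as the only scaling. Acly, which makes cytosolic acetyl-CoA from citrate, was at 227, 192 and 146 CPM and at 158, 137 and 121 CPM (-0.44, 95% interval -0.81 to -0.07, adjusted p = 0.0625). Acaca, which makes malonyl-CoA, was at 63.0, 44.0 and 34.3 CPM and at 40.4, 26.1 and 32.9 CPM (-0.51, 95% interval -0.99 to -0.03, adjusted p = 0.0977). Both had overlapping groups. Acly passed the threshold in 6 of 18 alternative settings and Acaca in 2 (library size only, and without vehicle replicate 9). Without vehicle replicate 9 both passed, and 5 of the 8 fatty acid genes were called lower, beside 2012 of all genes. A processed copy, Gm5182, with 8 to 205 counts a tumor, matched 64.3% of the Acaca transcript. Elovl6, the elongase of palmitate, was at 32.9 to 40.8 CPM and at 24.6 to 30.9 CPM (-0.43, 95% interval -0.85 to -0.02, adjusted p = 0.101), without overlap.

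The fatty acid genes varied more between vehicle tumors than the sterol enzymes did. Vehicle replicate 7 had the highest vehicle value for 7 of the 8 fatty acid genes and for 7 of the 18 sterol enzymes, where it had the highest value for 41.1% of all tested genes. The median coefficient of variation among vehicle tumors was 22.2% for the fatty acid genes, 11.8% for the sterol enzymes and 21.5% for all tested genes. As a sum, the fatty acid genes were at 1467 ± 343 CPM in vehicle and 1105 ± 100.2 CPM in RGS tumors (SD, n = 3), and the lowest vehicle tumor, at 1175 CPM, was below the highest RGS tumor, at 1211 CPM. The 18 sterol enzymes were at 1698 ± 63.9 CPM and 1335 ± 16.3 CPM, without overlap.

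Together the 32 genes took 0.354 to 0.465% of all counts in vehicle tumors and 0.270 to 0.316% in RGS tumors. Levels of different genes were compared per length, as RPKM (CPM divided by the gene length given with the counts, in kilobases). That length was 1508 bases for Fads2 and 3456 for Fads1, below their exon lengths in GENCODE M21 of 3295 and 4812 bases. For Tm7sf2 it was 5593, above 4403, so the RPKM and ranks of these genes are less certain. Scd2 led in both groups, at 88.1 ± 22.2 RPKM in vehicle and 74.6 ± 7.79 RPKM in RGS tumors (SD, n = 3). In vehicle tumors Insig1 (60.5 RPKM), Msmo1 (60.2 RPKM) and Scd1 (55.5 RPKM) followed, and their ranges overlapped. In RGS tumors Srebf2 (48.6 RPKM) and Msmo1 (40.5 RPKM) followed. Insig1 moved from rank 2 to rank 18, Idi1 from 18 to 28 and Scd1 from 4 to 9, while Dhcr7 moved from 22 to 8 and Sqle from 13 to 5. Of the 31 pairs of neighbors in this order, 25 in vehicle and 22 in RGS tumors had overlapping ranges, so most single ranks are not distinct.

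**Figure D4:**
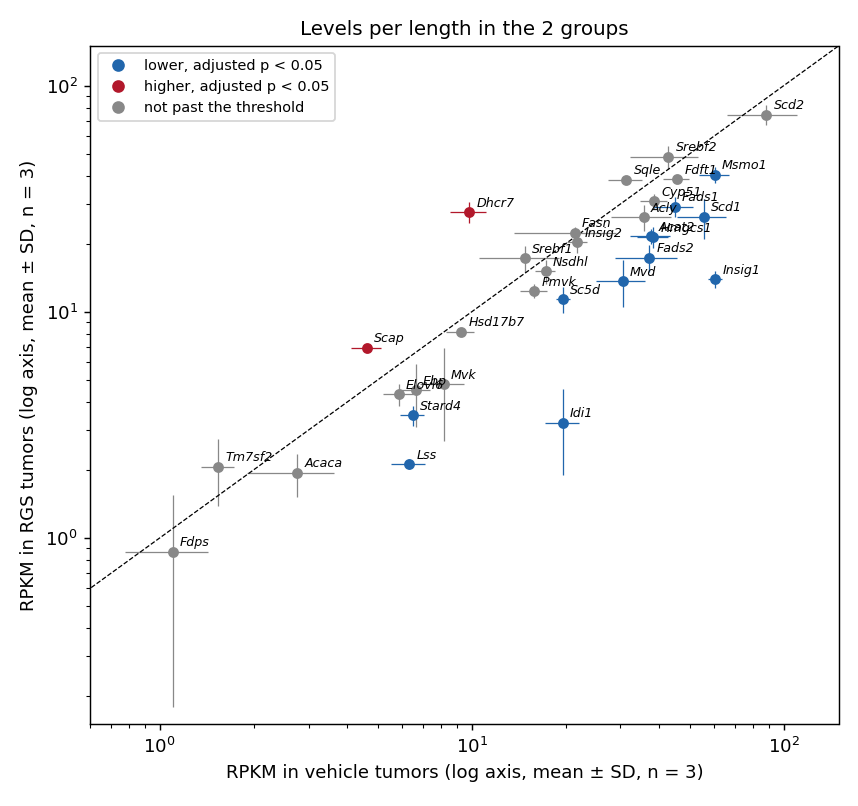
Mean RPKM of each gene in vehicle (x) and RGS tumors (y), both on log axes, with bars for the SD (n = 3) and a dashed line of equal level. Dhcr7 and Scap lie above the line among called genes, and Insig1, Idi1 and Lss lie farthest below it.

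Genes that surround these pathways were read from lists drawn up by function. The shares called below stand beside 16.3% higher and 16.5% lower over all genes tested, and nothing particular to a list is read from them. Of 19 tested genes for SREBP processing and sterol-regulated degradation, 6 (31.6%) were higher and 4 (21.1%) lower (median log2 fold change 0.34). Mbtps2, the second protease that cuts SREBP, fell from 59.6 ± 3.97 to 32.7 ± 5.74 CPM (-0.87, adjusted p = 0.00150), though 28.4% of its exon bases overlap another gene. Erlin1, an endoplasmic reticulum protein that restrains SREBP activation, fell from 52.0 ± 8.59 to 14.6 ± 1.89 CPM (-1.83). The coat subunits Sec24d and Sec23a, part of the vesicles that carry Scap and SREBP, rose by 1.16 and 0.73 on the log2 scale, and Syvn1, a ubiquitin ligase of the same compartment, rose by 1.33. Paqr3, a Golgi anchor of Scap, fell from 7.10 ± 1.26 to 2.34 ± 0.598 CPM (-1.59, adjusted p = 0.0122), though 15.7% of its exon bases overlap another gene.

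In the isoprenoid branch, which uses farnesyl diphosphate to modify proteins and build ubiquinone, 3 of 14 tested genes (21.4%) were lower and 1 (7.14%) was higher (median -0.29). The lower genes were Coq2 (-1.21), of ubiquinone synthesis, and the prenyltransferase subunits Pggt1b (-1.19) and Fnta (-0.94). The higher gene was Icmt (1.16), which methylates prenylated proteins, and without vehicle replicate 7 the higher genes were 2.

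Among 18 tested genes for cholesterol export, storage and oxysterols, 6 (33.3%) were higher and 5 (27.8%) lower (median 0.30). Abcg1, a sterol exporter, rose from 1.20 ± 0.668 to 4.27 ± 0.809 CPM (1.82, adjusted p = 0.0424), and Stard3, a sterol carrier of late endosomes, from 25.3 ± 5.82 to 67.4 ± 6.35 CPM (1.42). Soat2, which esterifies cholesterol, fell from 6.12 ± 0.852 to 1.05 ± 1.22 CPM (-2.49, adjusted p = 0.00988), and Scarb1, the receptor for high density lipoprotein, fell by 0.84 on the log2 scale. Pltp, which transfers phospholipids between lipoproteins, fell from 17.3 ± 2.83 to 4.37 ± 0.729 CPM (-1.98, adjusted p = 7.83e-05), though 19.3% of its exon bases overlap another gene, and Arl4c rose by 0.82.

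Of 30 tested genes for further steps of fatty acid and glycerolipid synthesis, 11 (36.7%) were higher and 7 (23.3%) lower (median 0.40). Gpam, the first acyltransferase of glycerolipid synthesis, fell from 8.44 ± 0.978 to 1.45 ± 0.519 CPM (-2.52, adjusted p = 0.000407), and Fads3, a neighbor and relative of Fads1 and Fads2, from 164 ± 23.6 to 81.5 ± 10.7 CPM (-1.01). Agpat2, the next acyltransferase, rose by 1.65 on the log2 scale, the phosphatidate phosphatase Lpin2 by 1.52 and Hacd3, of fatty acid elongation, by 1.14, while Mlx, a transcription factor partner, fell by 0.98. Another gene overlaps 19.3% of the exon bases of Mlx. Of 21 tested genes for mitochondrial fatty acid oxidation, 6 (28.6%) were higher and 3 (14.3%) lower (median 0.28). Cpt1a, which commits fatty acids to mitochondrial uptake, rose from 35.1 ± 6.07 to 128 ± 9.74 CPM (1.87, adjusted p = 2.36e-07), Cpt2 by 1.25 and Hadha by 1.31 on the log2 scale, while Eci1 fell by 0.83, Echs1 by 0.78 and Acadm by 0.57. In this last list the count of higher genes was 3 without RGS replicate 10 or 11, and that of lower genes was 1 without vehicle replicate 9 or RGS replicate 10.

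**Figure D5:**
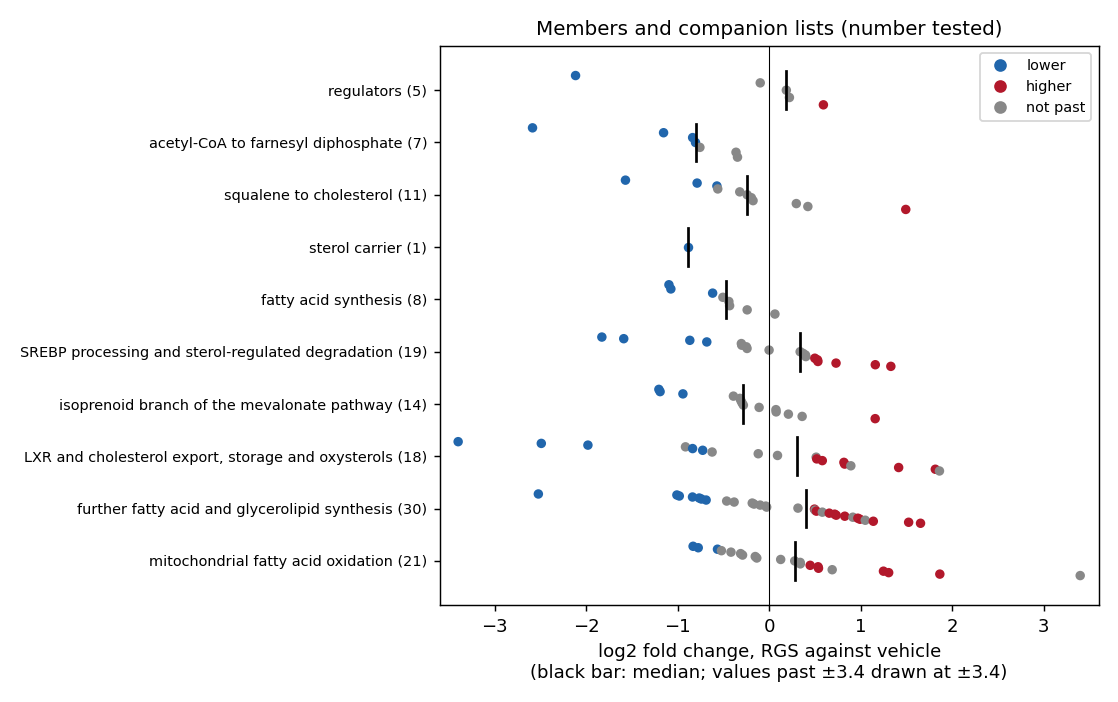
Log2 fold change, RGS against vehicle, of each tested gene in the role groups of the 32 genes (upper 5 rows) and in the 5 surrounding lists (lower 5 rows), with the number tested, a black bar at each median and colors for the call at adjusted p = 0.05. The medians of the enzymes from acetyl-CoA to farnesyl diphosphate (-0.81) and of fatty acid synthesis (-0.47) are negative, and those of 4 of the 5 surrounding lists are positive, the isoprenoid branch (-0.29) being the exception.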

How the data were processed

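RNA was sequenced from 3 vehicle and 3 RGS tumors. The deposited values are raw counts per gene, which the authors made from reads trimmed, aligned to mm10 and assigned to genes; the submitters' processing notes name cutadapt 1.18, FastQC 0.11.7, STAR 2.7.1a and featureCounts 1.6.4. The strand setting and the handling of reads that map to several places are not given in the sources used here.

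Genes whose median was 5 counts or more in either group were tested with edgeR 4.0.16 (quasi-likelihood, TMM factors, R 4.3.3), with Benjamini-Hochberg adjustment over all 15355 genes. SE and 95% intervals came from the same fit. CPM used the TMM-scaled library, and RPKM divided it by the gene length in the table. Nothing says whether libraries came from separate animals, so p-values measure the spread between these samples. On 10 simulated data sets of 15355 genes with 200 changed, 46.9% of the 2-fold and 67.1% of the 4-fold changes were recovered, with 7.54% false calls.

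The 32 genes and all lists were chosen with earlier results of these data known. All 32 were named; from each surrounding list, up to 3 genes a direction with the largest change among those called, with a mean of at least 1 CPM and no overlap between groups. Overlapping exons (GENCODE M21) and near copies (blastn 2.17.0) were checked. Alternatives included DESeq2 1.42.0, limma 3.58.1 (voom), other scalings and filters, thinning and leaving out each tumor.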

Additional observations from a re-analysis of the deposited data

How the results depend on the processing

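The 12 genes called lower stayed at 11 to 14 when 1 tumor was left out, beside 1717 to 2551 of all genes in place of 2533. They were 12 with DESeq2 (beside 2642 of all genes), 18 with limma voom (3408) and 17 with library size as the only scaling (3152). They were 6 when a log2 change of at least 1 was also required. The 2 genes called higher became 4 with limma voom, beside 3407 of all genes, and 1 with library size only, beside 1870. They became 1 with a log2 change of at least 1 and 1 at adjusted p under 0.01. With 1 tumor left out they were 1 to 6 (6 without vehicle replicate 7), beside 1776 to 2698 of all genes. The median log2 fold change of -0.44 was -0.48 with limma voom, -0.58 with library size only, and -0.53 to -0.37 with 1 tumor left out. Library size only moved the median of all genes from -0.05 to -0.19; relative to it, the median of the 32 genes was -0.39 in both fits. Over all genes, 2503 higher and 2533 lower became 1168 and 1450 with a log2 change of at least 1, and 1607 and 1562 at adjusted p under 0.01. Single genes reversed in 4 cases, none of them called: Fdps without RGS replicate 12 (0.18; range with 1 tumor left out -0.74 to 0.18) and Fasn with library size only (-0.085), without vehicle replicate 8 (-0.031) and without vehicle replicate 9 (-0.099; range -0.099 to 0.40). The cause was not tested. Over the 32 genes and 18 alternatives, 540 values kept sign and side of the threshold, 27 newly passed and 5 no longer passed. Leaving out mitochondrial and ribosomal protein genes before scaling, an alternative chosen after seeing the data, left 12 lower and 2 higher. No paired analysis was possible because the groups share no replicate numbers. With 3 tumors a group, a gene that missed the threshold is not shown to be equal. The simulated recovery of 46.9% of 2-fold changes came from 200 changed genes among 15355. In the data 32.8% of all genes were called, so that figure is not the recovery rate for these 32 genes.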
